A study of Mus musculus with 16 samples.

Results

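The genes examined were 10 regulators of entry into the cell cycle: the D cyclins Ccnd1, Ccnd2 and Ccnd3, the E cyclins Ccne1 and Ccne2, the kinases Cdk4 and Cdk6, the CDK inhibitors Cdkn1a (p21) and Cdkn1b (p27), and the transcription factor E2f1. They were listed by name for their place in G1, with no measured value in the rule but with earlier results of these data known, and make up 10 of 18232 genes listed in either expression table of the study; all 10 were listed for plasmacytoid DCs (pDCs) and for conventional DCs (cDC1s and cDC2s). The 16 RNA-seq libraries were of dendritic cells (DCs) sorted from the spleen of C57BL/6 mice 6 to 8 weeks old. WT mice were Trim33 fl/fl without Cre, and cKO mice were Trim33 fl/fl Itgax-Cre, so both genotypes carried the floxed allele and only cKO mice carried a Cre driven by the promoter of Itgax, the gene of CD11c. Per the gating of the study, all were CD11c+; pDCs carried SiglecH, cDCs lacked it and carried MHC II, and among cDCs the cDC1s were CD24+ CD172a- and the cDC2s CD24- CD172a+. Each genotype had 3 libraries of pDCs, 2 of cDC1s and 3 of cDC2s. Each library was pooled from several mice, and from more cKO than WT mice. TRIM33 is a chromatin-associated protein, and the comparison asks what its loss changes in differentiated DCs.

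A quiescent cell enters the cycle when mitogen signals raise D cyclins, which bind and activate CDK4 and CDK6. These kinases, and later cyclin E with CDK2, phosphorylate the retinoblastoma protein RB, which then releases E2F factors that switch on the genes of DNA replication, the E cyclins and E2f1 itself among them. p21 and p27 bind cyclin-CDK complexes and hold cyclin E-CDK2 inactive; p21 is a classical target of p53, and p27 is high in resting cells. Splenic cDCs retain some capacity to divide, whereas pDCs leave the bone marrow as largely non-dividing cells, and DC maturation is accompanied by exit from the cycle.

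The levels are TPM (transcripts scaled by their length and by the library's total), so that levels of different genes can be set side by side. Fold changes are cKO over WT on the log2(TPM + 1) scale with their standard error (SE) from limma. A gene was called higher or lower where its adjusted p did not exceed 0.01 and its log2 fold change was 0.5 or more in size. All adjusted p values are from limma with Benjamini-Hochberg adjustment over all genes tested. All 10 genes passed the filter (a mean of at least 1 TPM) in both fits, but Ccne1 and Ccne2 passed in pDCs only through their cKO libraries, since their WT means were 0.31 and 0.943 TPM. In bulk libraries a change in the share of cells that express a gene and a change in RNA per cell cannot be told apart.

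Estimated depths were 17.94 to 20.16 M reads a library, at which 3 reads on a transcript of 2000 bases equal 0.141 to 0.184 TPM; this covers counting error only. Trim33 (chromosome 3, 103279293 to 103358770, GRCm38.p6) was lower in every cKO library. In pDCs it was at 20.6, 23.8 and 22.3 TPM in WT and 12.6, 16.5 and 11.7 TPM in cKO libraries (log2 fold change -0.68, SE 0.13, adjusted p = 0.0301), which passed the threshold only with the replicate number as a block (adjusted p = 0.00361, from 0.00361 to 0.122 over the 13 alternatives). Trim33 of cDC1s fell by 1.02 (adjusted p = 0.000349) and in cDC2s by 1.17 (adjusted p = 0.000126). Markers set the sorted subsets apart, although some moved with genotype: 8 pDC genes summed to 14099 to 15848 TPM in pDC and 153 to 296 TPM in cDC libraries, and 7 cDC1 genes to 2350 to 3060 TPM in cDC1 and 201 to 277 TPM in all other libraries. The 7 cDC2 genes separated cDC2s (1294 to 1492 TPM) from cDC1s (34.8 to 62.1 TPM) but not from pDCs (1146 to 1327 TPM). In cKO cDC1s 3 of the 7 cDC1 genes were called lower (Itgae, Cadm1 and Clec9a; list median -0.52), and of the 7 cDC2 genes 2 were called higher (Itgam and Clec10a) and 1 lower (Esam). In cKO cDC2s 3 of the 7 cDC2 genes were called higher and 1 lower, and 0 of the 7 cDC1 genes. In pDCs 5 of 8 pDC genes and all 4 cDC1 genes tested lay below WT in every cKO library, of which 1 pDC gene was called lower, and 1 pDC gene was called higher. Of the 7 cDC2 genes, 5 were tested in pDCs, with 1 called higher and 0 lower. Among these 5, Itgam was at 1.3 to 2.48 TPM in WT and 16.2 to 25.4 TPM in cKO pDCs. Among all genes tested, 15.8% were called higher and 6.56% lower in cDC1s, 3.59% and 3.56% in cDC2s, and 0.814% and 0.239% in pDCs. In every cKO pDC library, 16.7% of all genes tested lay below WT. The part of the marker shifts in the results was not tested.

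Of the 10 G1 genes, 3 rose in cKO pDCs (Ccnd2, Ccnd3 and Ccne1), 8 rose in cKO cDC1s (all except Cdkn1a and Cdkn1b) and 5 rose in cKO cDC2s (Ccnd3, Ccne1, Ccne2, Cdk4 and E2f1). None of the 10 was called lower in any subset. Over all genes tested, 0.814% were called higher in pDCs, 15.8% in cDC1s and 3.59% in cDC2s, and 0.239%, 6.56% and 3.56% were called lower. The cDC1 count therefore stands beside a far larger background than the pDC count. Ccnd3 and Ccne1 were the genes called in each of the 3 subsets. In pDCs, however, Ccne1 (WT mean 0.31 TPM) passed the filter only through its cKO libraries, and its call was lost without any 1 library. Its cDC2 call was made in 6 of 18 alternatives. Over the 10 genes the median log2 fold change was 0.40 in pDCs, 1.14 in cDC1s and 0.40 in cDC2s, beside -0.05, 0.17 and -0.03 over all genes tested. Because the median gene was itself 0.17 higher in cKO cDC1s, the 8 calls there are also given relative to it: they ran from 0.74 to 1.28 above that median, and the 8 genes were called as well after median-of-ratios scaling, which set the median of all genes at 0.02.

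**Figure D1:**
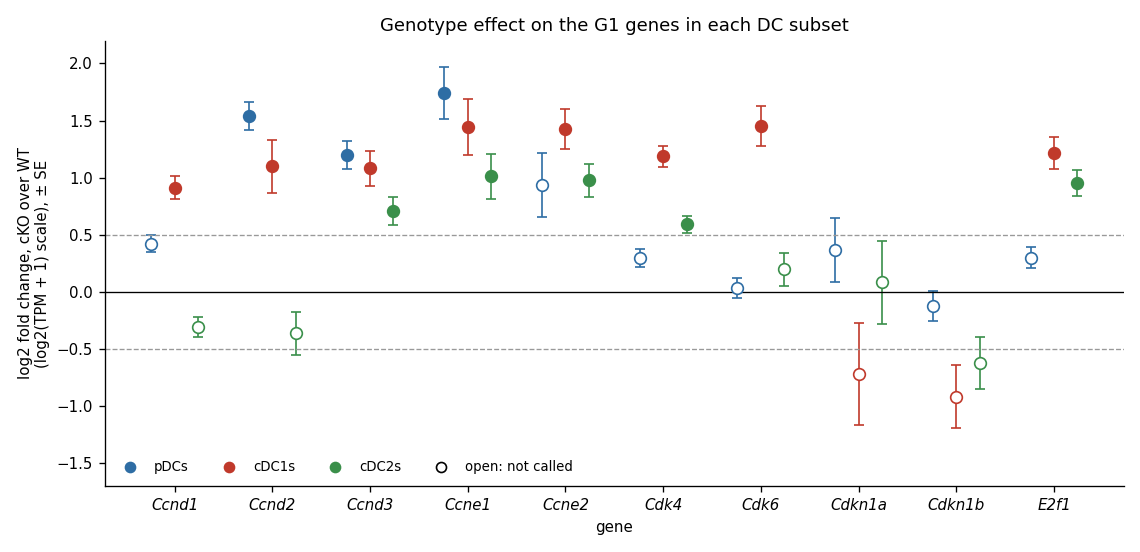
Log2 fold change of cKO over WT (vertical axis, log2(TPM + 1) scale, with the limma SE) for each of the 10 genes in pDCs, cDC1s and cDC2s; filled points were called and open points were not, and dashed lines mark 0.5 in either direction. All cyclin, kinase and E2f1 points of cDC1s are filled and lie between 0.91 and 1.45, and every Cdkn1a and Cdkn1b point is open.

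Ccnd1, Ccnd2 and Ccnd3 encode the 3 D cyclins, the subunits that tie CDK4 and CDK6 to growth signals. Ccnd1 (chromosome 7, 144929931 to 144939831) was the D cyclin at the highest level in pDCs and cDC2s. In pDCs it was at 426, 382 and 410.2 TPM in WT and 602, 514 and 521 TPM in cKO libraries. All cKO pDC libraries were above all WT ones, but the log2 difference, 0.42 (SE 0.08, adjusted p = 0.0241), passed neither threshold; with the replicate number as a block its adjusted p was 0.00278 (range over 13 alternatives 0.00278 to 0.0985) and its fold change stayed under 0.5. In cDC1s Ccnd1 was at 138 and 139 TPM in WT and 279.9 and 244 TPM in cKO libraries, a rise of 0.91 (SE 0.10, adjusted p = 0.000189) that was called in all 18 alternatives. In cDC2s it was at 587, 669 and 634 TPM in WT and 526, 489 and 512 TPM in cKO libraries. There the cKO libraries lay below the WT ones with no overlap, and the log2 difference, -0.31 (SE 0.08, adjusted p = 0.0298), was not called. The cDC1 effect exceeded the cDC2 effect by 1.22 (SE 0.13, adjusted p = 0.00078), and this difference was called in all 17 alternatives.

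Ccnd2 (chromosome 6, 127125162 to 127152188) was the least abundant D cyclin in every library. It stood at 8.76, 8.2 and 7.81 TPM in WT pDCs and 30.6, 22.0 and 25.7 TPM in cKO pDCs, a rise of 1.54 (SE 0.12, adjusted p = 0.00157), or 3.16-fold by the means. This call was lost only without the third WT library (adjusted p = 0.0114, from 0.000215 to 0.0114 over 13 alternatives). In cDC1s Ccnd2 was at 5.53 and 3.74 TPM in WT and 11.45 and 10.4 TPM in cKO libraries, a rise of 1.10 (SE 0.23, adjusted p = 0.00433) that was not called without the second WT library, without either cKO library, with no filter on low values or with a replicate block (adjusted p over 18 alternatives 0.000742 to 0.0388). WT cDC2s, the group with the highest mean, held 33.3, 55.4 and 52.6 TPM, and cKO cDC2s 38.5, 33.9 and 34.6 TPM. These groups overlapped (log2 fold change -0.36, SE 0.19, adjusted p = 0.206). The cDC1 effect minus the cDC2 effect was 1.46 (SE 0.30, adjusted p = 0.0159), which missed the threshold and passed it only without the first WT cDC2 library (1.69; adjusted p over 17 alternatives 0.00245 to 0.0896).

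Ccnd3 (chromosome 17, 47505051 to 47599689), which immature lymphocytes need for their expansion, was the one D cyclin that rose in all 3 subsets. In pDCs it went from 166, 159 and 141 TPM in WT to 436, 329 and 317 TPM in cKO libraries (1.199, SE 0.12, adjusted p = 0.00307). In cDC1s the values were 198 and 207 TPM in WT and 450.1 and 409 TPM in cKO libraries (1.08, SE 0.15, adjusted p = 0.000602). In cDC2s they were 157, 174 and 226 TPM in WT and 293, 286 and 324 TPM in cKO libraries (0.71, SE 0.13, adjusted p = 0.00454). No WT library of a subset reached any of its cKO libraries. The cDC1 call was made in all 18 alternatives. The pDC call was lost without the second or the third WT library, with no filter and without the mean-variance trend (adjusted p over 13 alternatives 0.000204 to 0.0218). The cDC2 call was made in 9 of 18 alternatives (adjusted p 0.000469 to 0.026), and its fold changes in them stayed between 0.60 and 0.86.

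The makeup of the D cyclin pool moved with genotype, by more in pDCs and cDC2s than in cDC1s. Ccnd3 made up 27.3% ± 1.83 (SD, n = 3) of summed D cyclin TPM in WT pDCs and 38.5% ± 2.08 (SD, n = 3) in cKO pDCs. In cDC2s its share was 21.4% ± 2.90 (SD, n = 3) in WT and 35.6% ± 1.53 (SD, n = 3) in cKO libraries. Both pairs of groups were apart in every library, and no test was run on shares. In cDC1s, where Ccnd3 was the main D cyclin in either genotype, its share was 58.6% ± 0.818 (SD, n = 2) in WT and 61.2% ± 0.650 (SD, n = 2) in cKO libraries. These groups did not overlap either, but the shift was small. The summed level followed another pattern: it was 569.6 and 933 TPM in WT and cKO pDCs and 345 and 702 TPM in WT and cKO cDC1s, but 863 and 845 TPM in WT and cKO cDC2s, whose ranges overlapped.

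**Figure D2:**
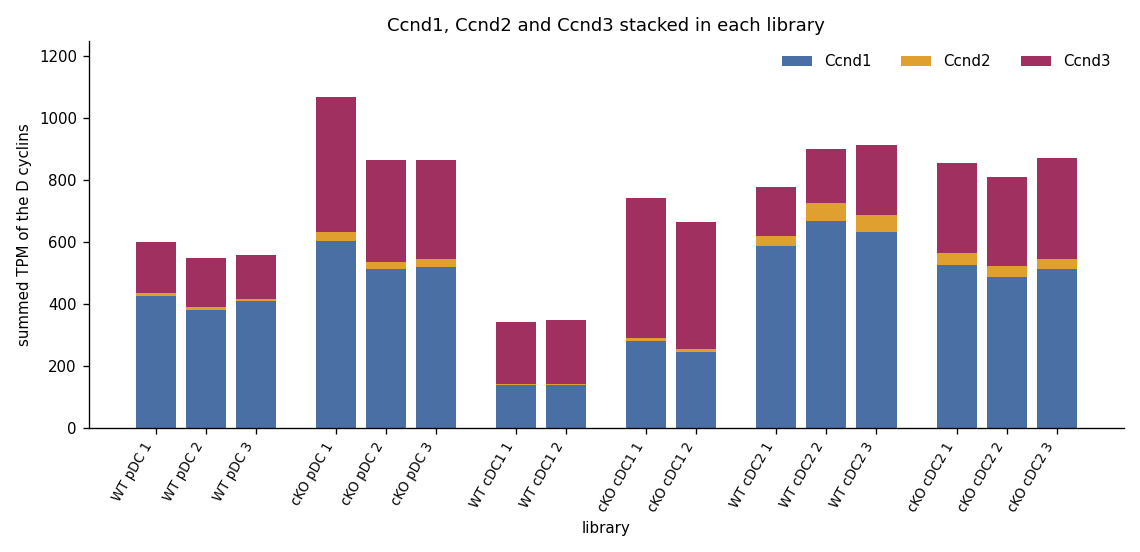
TPM of Ccnd1, Ccnd2 and Ccnd3 stacked (vertical axis, from 0) in each of the 16 libraries (horizontal axis). Summed D cyclin TPM was 549 to 600.5 in WT and 864 to 1069 in cKO pDCs, 341 to 349 in WT and 663 to 741 in cKO cDC1s, and 777 to 912 in WT and 809 to 871 in cKO cDC2s, with a thicker Ccnd3 band in cKO cDC2s.

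Ccne1 and Ccne2 encode the E cyclins, which activate CDK2 at the passage from G1 to S phase. Ccne1 (chromosome 7, 38097984 to 38107490) was at 0.31, 0.25 and 0.37 TPM in WT pDCs, close to the level of 3 reads, and at 5.18, 2.86 and 2.51 TPM in cKO pDCs. This was 11.3-fold by the means and a difference of 1.74 on the log2(TPM + 1) scale (SE 0.23, adjusted p = 0.00794), or 3.08 with a pseudocount of 0.1. The call was lost without any 1 of the 6 libraries and in 3 of 6 other alternatives (adjusted p 0.00247 to 0.0423), though all 3 cKO values stayed above all WT values. In cDC1s Ccne1 was at 7.6 and 7.9 TPM in WT and 22.8 and 22.9 TPM in cKO libraries (1.45, SE 0.24, adjusted p = 0.00145), a call lost without the first WT library or either cKO library (adjusted p over 18 alternatives 0.00015 to 0.0151). In cDC2s it was at 6.37, 8.03 and 12.7 TPM in WT and 16.3, 21.8 and 17.9 TPM in cKO libraries (1.01, SE 0.20, adjusted p = 0.0073), a call made in 6 of 18 alternatives (0.000571 to 0.0286).

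Ccne2 (chromosome 4, 11190433 to 11204779) rose in both cDC subsets, and its calls there held in all 18 alternatives. In cDC1s it was at 6.36 and 7.53 TPM in WT and 21.8 and 18.9 TPM in cKO libraries (1.43, SE 0.18, adjusted p = 0.000296). In cDC2s it was at 7.98, 10.2 and 8.5 TPM in WT and 16.8, 22.6 and 16.4 TPM in cKO libraries (0.98, SE 0.14, adjusted p = 0.00178). WT pDCs held 0.44, 1.5 and 0.89 TPM and cKO pDCs 4.06, 2.46 and 1.72 TPM, which did not overlap but were not called (0.94, SE 0.28, adjusted p = 0.116). For neither E cyclin did the cDC1 and cDC2 effects differ at the threshold (0.44, SE 0.32, adjusted p = 0.366 for Ccne1; 0.45, SE 0.23, adjusted p = 0.211 for Ccne2). Both E cyclins were far below the D cyclins. The summed D cyclin level was 519 times the summed E cyclin level in WT pDCs and 161 times in cKO pDCs (means of the library ratios). These pDC ratios ran from 314 to 801 in WT and from 116 to 204 in cKO libraries. The WT ones rest on summed E cyclin levels of only 0.75, 1.75 and 1.26 TPM. The ratio was 23.5 and 16.2 in WT and cKO cDC1s and 48.8 and 23.1 in WT and cKO cDC2s.

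Cdk4 and Cdk6 encode the kinases that the D cyclins activate. Cdk4 (chromosome 10, 127063535 to 127067288) was nearly level over the WT groups, at 139, 130.0 and 136 TPM in pDCs, 145 and 147 TPM in cDC1s and 141, 141 and 155 TPM in cDC2s. In cKO cDC1s it rose to 330.2 and 338 TPM (1.19, SE 0.09, adjusted p = 2.54e-05), the smallest adjusted p of the 10 genes in any genotype comparison. In cKO cDC2s it rose to 221, 227 and 212 TPM (0.59, SE 0.07, adjusted p = 0.00076), and both calls were made in all 18 alternatives. In cKO pDCs it was at 187, 156 and 157 TPM, above every WT library but not called (0.30, SE 0.08, adjusted p = 0.0832). The difference between the cDC1 and cDC2 effects was 0.59 (SE 0.12, adjusted p = 0.0139) and was not called.

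Cdk6 (chromosome 5, 3341004 to 3531008) was called in cDC1s and in no other subset. It went from 5.69 and 6.2 TPM in WT to 19.2 and 16.9 TPM in cKO cDC1s, a rise of 1.45 (SE 0.17, adjusted p = 0.000259) called in all 18 alternatives. In cDC2s the groups overlapped, at 5.99, 7.85 and 8.3 TPM in WT and 9.69, 7.19 and 8.9 TPM in cKO libraries (0.20, SE 0.14, adjusted p = 0.359). In pDCs they also overlapped, at 17.5, 18.3 and 18.0 TPM in WT and 19.8, 19.0 and 16.5 TPM in cKO libraries (0.03, SE 0.09, adjusted p = 0.863), and without the first cKO library the sign turned (-0.02). The cDC1 effect exceeded the cDC2 effect by 1.26 (SE 0.22, adjusted p = 0.00927). That difference was called in 5 of 17 alternatives (adjusted p 0.00514 to 0.0651) and without only 1 of the 10 cDC libraries, the first WT cDC2 library; its value stayed between 1.02 and 1.38. The ratio of Cdk4 to Cdk6 was 24.6 ± 1.26 in WT and 18.6 ± 2.01 in cKO cDC1s (SD, n = 2), and 20.0 ± 3.00 in WT and 26.1 ± 4.77 in cKO cDC2s (SD, n = 3), with cDC2 groups that overlapped.

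Cdkn1a (chromosome 17, 29090979 to 29100722) and Cdkn1b (chromosome 6, 134920401 to 134925525) encode the inhibitors p21 and p27, and neither passed the threshold in a subset. Cdkn1a was at 69.1 and 50.2 TPM in WT cDC1s and 32.4 and 38.9 TPM in cKO cDC1s, with no overlap (-0.72, SE 0.45, adjusted p = 0.228). In cDC2s the 3 WT libraries were themselves far apart, at 60.8, 24.6 and 17.2 TPM, and enclosed the cKO values of 27.9, 29.2 and 38.5 TPM (0.09, SE 0.36, adjusted p = 0.894). Its fold change there was 0.59 without the first WT library and -0.29 without the third (adjusted p over 18 alternatives 0.0819 to 0.958), so that its sign depended on the library left out. In pDCs it was near 5 TPM, at 8.18, 3.71 and 3.24 TPM in WT and 7.33, 6.48 and 5.33 TPM in cKO libraries (0.37, SE 0.28, adjusted p = 0.504).

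Cdkn1b was lower in every cKO library than in every WT library of both cDC subsets. It was at 98.35 and 197 TPM in WT and 75.6 and 71.2 TPM in cKO cDC1s (-0.92, SE 0.28, adjusted p = 0.025), and at 215, 148 and 145 TPM in WT and 105, 110.2 and 108 TPM in cKO cDC2s (-0.62, SE 0.23, adjusted p = 0.0801). Without the first WT library the cDC1 value was -1.41 and was called (adjusted p = 0.00273), and without the second it was -0.42 and was not (adjusted p over 18 alternatives 0.00273 to 0.173). In pDCs the groups overlapped, at 123, 160.2 and 128 TPM in WT and 114, 147 and 118 TPM in cKO libraries (-0.12, SE 0.13, adjusted p = 0.629). Values of other transcripts of resting cells are given beside the spread over WT libraries: 9 genes of a quiescence list (Btg1, Btg2, Ccng2, Foxo1, Foxo3, Klf2, Pik3ip1, Tob1 and Tob2) summed to 3045 TPM in the first WT cDC2 library, which held the highest Cdkn1a and Cdkn1b of its group, and to 1394 and 1504 TPM in the others. They summed to 1229 TPM in the first and 2007 TPM in the second WT cDC1 library, the latter being the one with the higher Cdkn1b and the lower Cdkn1a. In WT pDCs they summed to 1842, 2107 and 2415 TPM, while Cdkn1a was highest in the first library and Cdkn1b in the second, so that the sums and both inhibitors were highest together in 1 WT cDC2 library and not in the other subsets. Summed D cyclin TPM over summed Cdkn1a and Cdkn1b TPM was 1.72 ± 0.443 in WT and 6.45 ± 0.594 in cKO cDC1s (SD, n = 2). This ratio was 4.06 ± 0.636 in WT and 7.17 ± 1.60 in cKO pDCs (SD, n = 3). In cDC2s it was 4.56 ± 1.52 in WT and 6.07 ± 0.346 in cKO libraries (SD, n = 3), with a highest WT value of 5.64 and a lowest cKO value of 5.81. No test was run on it.

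E2f1 (chromosome 2, 154559400 to 154569892), the activator that RB holds back and one of its own targets, rose in both cDC subsets. In cDC1s it was at 25.2 and 27.9 TPM in WT and 62.4 and 63.25 TPM in cKO libraries (1.21, SE 0.14, adjusted p = 0.000224). In cDC2s it was at 23.5, 23.8 and 29.8 TPM in WT and 54.7, 52.3 and 44.65 TPM in cKO libraries (0.95, SE 0.12, adjusted p = 0.000673). Both calls were made in all 18 alternatives, and the effects did not differ at the threshold (0.26, SE 0.18, adjusted p = 0.349). In pDCs it was at 21.7, 21.05 and 21.65 TPM in WT and 29.4, 27.25 and 23.7 TPM in cKO libraries, every cKO library above the WT ones, and was not called (0.30, SE 0.09, adjusted p = 0.116).

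**Figure D3:**
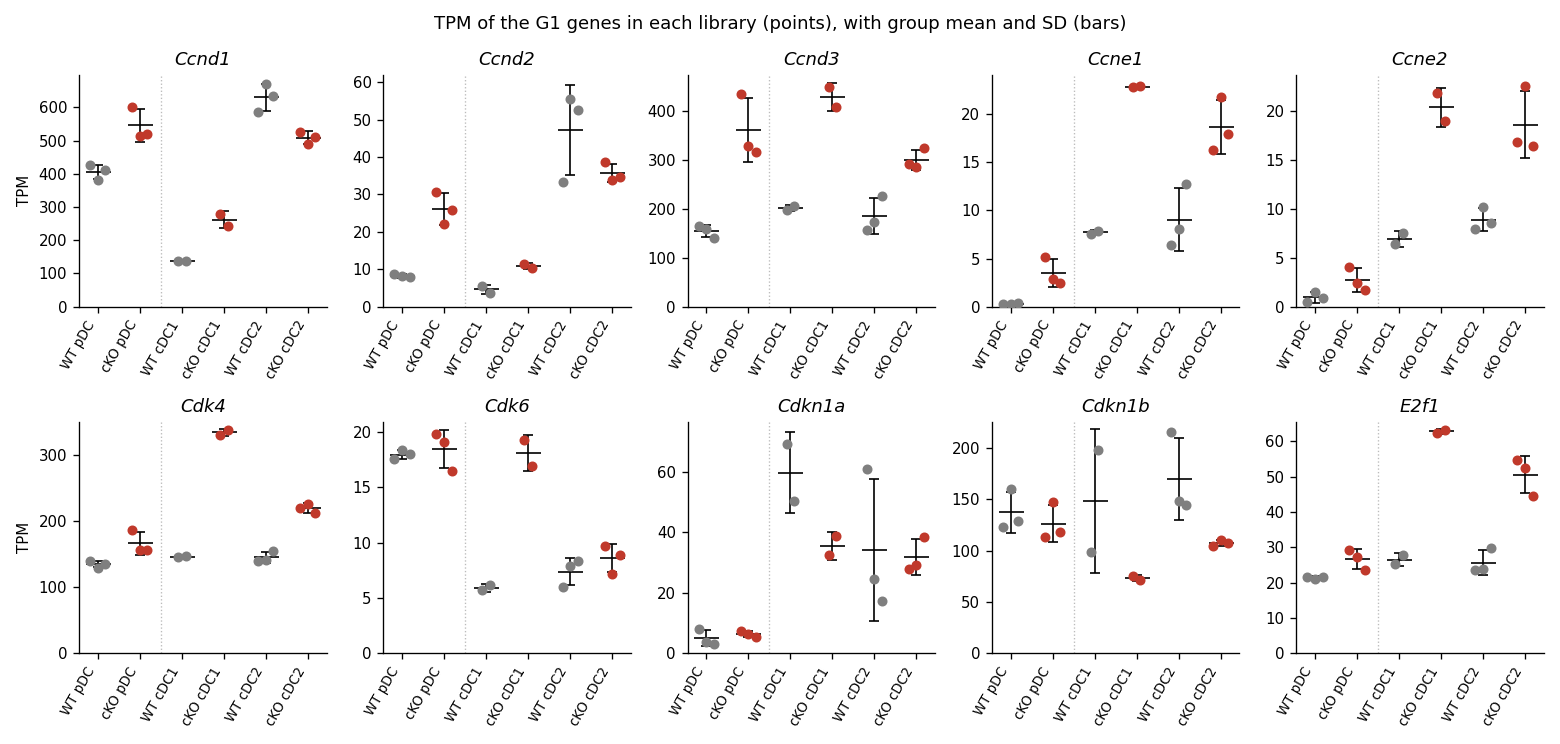
TPM (vertical axes, from 0, a different scale in each panel) of the 10 genes in each library (points, grey for WT and red for cKO), with the group mean and SD as bars; the dotted line divides pDCs from cDCs, whose tables were made separately. E2f1 and Cdk4 of cKO cDC1s lie above all other groups, Cdk6 of cKO cDC1s reaches the pDC level, and Cdkn1a of WT cDC2s runs from 17.2 to 60.8 TPM.

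Counted by overlap, 7 of the 10 genes had every cKO pDC library above every WT one and 0 had every one below, beside 10.8% and 16.7% of all genes tested. Among these 7, Ccne1 and Ccne2 passed the filter only through their cKO libraries, which favours a place above WT. In cDC1s 8 genes lay above and 2 (Cdkn1a and Cdkn1b) below with no overlap, beside 52.1% and 24.1% of all genes, with 2 libraries a group. In cDC2s 5 lay above and 2 (Ccnd1 and Cdkn1b) below, beside 16.3% and 19.2%. The difference between the cDC1 and cDC2 effects was called for 2 of the 10 genes, Ccnd1 and Cdk6, both with the larger effect in cDC1s, beside 1.21% of all genes called in that direction and 1.35% in the other. Among all genes tested this difference was above 0 for 72.9%, with a median of 0.22. Relative to that median it was 1.00 for Ccnd1 and 1.04 for Cdk6. The cDC1 and cDC2 effects do not share libraries, whereas the comparison of WT cDC1s with WT cDC2s shares its WT libraries with both.

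WT cDC1s and WT cDC2s differed in Ccnd1 and Ccnd2. Ccnd1 was lower in WT cDC1s by 2.18 on the log2 scale (a log2 difference of -2.18, SE 0.09, adjusted p = 4.91e-08), and Ccnd2 by 3.08 (a log2 difference of -3.08, SE 0.21, adjusted p = 1.08e-06). Over all genes tested, 20.8% were called lower and 10.9% higher in WT cDC1s. The other 8 genes were not called, and their differences ran from -0.31 (Ccne2, adjusted p = 0.132) to 0.97 (Cdkn1a, adjusted p = 0.0739). For Ccne1, Cdk4, Cdk6, Cdkn1b and E2f1 the sign of this difference turned in at least 1 alternative.

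Set in order, the cKO cDC1 group had the highest mean of the 6 groups for Ccnd3, Ccne1, Ccne2, Cdk4 and E2f1, WT cDC2s for Ccnd1, Ccnd2 and Cdkn1b, WT cDC1s for Cdkn1a and cKO pDCs for Cdk6. WT pDCs had the lowest mean for 6 genes (Ccnd3, Ccne1, Ccne2, Cdk4, Cdkn1a and E2f1). No test was made across the pDC and cDC tables. Ccnd3 of cKO cDC1s, cKO pDCs and cKO cDC2s overlapped from each group to the next, and so did Cdk6 of cKO pDCs, cKO cDC1s and WT pDCs. The highest group mean over the lowest was 73.7 for Ccne1, 21.6 for Ccne2, 11.8 for Cdkn1a and 10.2 for Ccnd2, and 2.30 to 4.55 for the other genes.

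The other genes of G1 entry were taken from 6 lists of 37 genes that hold no member of the 10. Of the 32 tested in pDCs, 2 were called higher and 0 lower. These 2, E2f8 and E2f2, had WT means under 1 TPM and passed the filter only through their cKO libraries. Of the 35 tested in cDCs, 17 were higher and 1 lower in cDC1s, and 2 were higher and 2 lower in cDC2s. Over all genes tested, 0.814%, 15.8% and 3.59% were called higher in pDCs, cDC1s and cDC2s, and 0.239%, 6.56% and 3.56% lower. The median log2 fold changes of these other G1 genes were 0.07, 0.53 and 0.09, beside -0.05, 0.17 and -0.03 over all genes tested.

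Cdk2, the partner of cyclin E, was at 32.5 to 36.2 TPM in WT and 65.3 to 70.1 TPM in cKO cDC1s and rose by 0.96 (SE 0.14, adjusted p = 0.000709). In cDC2s (0.32, adjusted p = 0.0764) and pDCs (0.56, adjusted p = 0.0217) it was not called. Ccnh, the cyclin of the CDK-activating kinase, rose by 0.79 in cDC1s, and Cdc25a, the phosphatase that removes the inhibitory phosphate from CDK2, by 0.73. The other 2 genes of this list, Cdk7 and Mnat1, were called in no subset.

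The INK4 inhibitors, which bind CDK4 and CDK6, moved in both directions. Cdkn2b (p15) was at 6.63 and 3.44 TPM in WT and 0.08 and 0.58 TPM in cKO cDC1s, a fall of 2.16 on the log2 scale (log2 fold change -2.16, SE 0.45, adjusted p = 0.0044). In cDC2s it ranged from 6.64 to 22.3 TPM in WT and from 2.01 to 3.13 TPM in cKO libraries (-1.91, SE 0.37, adjusted p = 0.00671). Cdkn2b passed the filter mainly through WT libraries, with means of 5.04 TPM in cDC1s and 13.2 TPM in cDC2s. Its cKO means were 0.33 and 2.43 TPM, and 0.08 TPM is below the level of 3 reads in cKO cDC1s (0.149 to 0.156 TPM). Cdkn2a fell in cDC2s, from 1.77 to 4.62 TPM in WT to 0.58 to 0.66 TPM in cKO libraries (-1.25, SE 0.24, adjusted p = 0.00666); it passed the filter only through WT cDC2s, the other cDC group means being at most 0.62 TPM. In cDC1s Cdkn2c (p18) and Cdkn2d (p19) rose instead, by 0.80 (adjusted p = 0.00217) and 0.92 (adjusted p = 0.00235). In pDCs Cdkn2a and Cdkn2b did not pass the filter, with group means of at most 0.177 TPM.

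Of 12 genes of the RB, E2F and DP families, 7 rose in cDC1s, among them E2f8 (1.70, adjusted p = 0.000879), E2f2 (1.38, adjusted p = 8.45e-05), E2f7 (1.19, adjusted p = 0.00486), Tfdp1 (1.19, adjusted p = 0.000226), E2f6 (0.96, adjusted p = 0.000771) and Rbl1 (0.81, adjusted p = 0.000723). E2f7 and E2f8 are E2F-family repressors, Tfdp1 encodes the DP1 partner of E2Fs, and Rbl1 encodes p107, a relative of RB. In cDC2s Tfdp1 (0.54, adjusted p = 0.00924) and E2f6 (0.68, adjusted p = 0.0042) rose. In pDCs E2f8 (0.49 to 1.08 TPM in WT and 6.17 to 15.99 TPM in cKO libraries, adjusted p = 0.00434) and E2f2 (0.46 to 0.54 and 2.45 to 4.98 TPM, adjusted p = 0.00835) rose from WT means under 1 TPM. Rb1 itself was called in no subset (-0.12, 0.16 and -0.33 in pDCs, cDC1s and cDC2s).

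Sequence upstream of the gene start was read for these families, because 7 of the 12 genes rose in cDC1s. The 250 bases before each start in RefSeq (GRCm38.p6) were searched on both strands for 4 E2F-type words, TTTCCCGC, TTTGGCGC, TTTCGCGC and TTTGCCGC. Of the 10 G1 genes, 7 had an entry, and 0 of these 7 held a word; Ccnd1, Ccnd2 and Ccne2 had none. Of the RB, E2F and DP genes, 4 of 9 with an entry held one, beside 5 of 18 (27.8%) of the S phase and mitosis genes described further on, 2.16% of 27025 genes with an entry and 4.05% of 9761 genes tested. The matching stretches, with the word, on either strand, in capitals and written 5′ to 3′ on the strand of the gene, were:
Rbl1 (chr2:157204535-157204563, minus strand): aagaaggcgatTTTCGCGCgctttgtcgc
Tfdp1 (chr8:13338697-13338726, plus strand): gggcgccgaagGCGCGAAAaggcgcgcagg
E2f7 (chr10:110745230-110745259, plus strand): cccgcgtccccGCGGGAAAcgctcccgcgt
E2f3 (chr13:29986064-29986085, minus strand): ttgaaaagccgGCGGGAAAtct
A match is a description of letters, and its absence says only that these letters are not in this window.

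DREAM is a complex that represses cell cycle genes in resting cells, and 5 genes of its core subunits were listed. Of these, Lin9 (0.78, adjusted p = 0.00308) and Lin54 (0.70, adjusted p = 0.00533) rose in cDC1s. None of the 5 was called in pDCs or cDC2s. Skp2, which targets p27 for degradation, was at 4.88 and 4.89 TPM in WT and 13.7 and 12.2 TPM in cKO cDC1s (1.25, SE 0.12, adjusted p = 0.000108), and its cofactor Cks1b rose by 0.73 (adjusted p = 0.00295). Neither was called in pDCs or cDC2s. Myc, which acts upstream of D cyclins and Cdk4, was at 23.0 and 16.3 TPM in WT and 90.4 and 80.85 TPM in cKO cDC1s (2.09, SE 0.25, adjusted p = 0.000242). It was not called in cDC2s (0.45, adjusted p = 0.148) or pDCs (1.23, adjusted p = 0.0668), and the difference between the cDC1 and cDC2 effects was 1.64 (SE 0.32, adjusted p = 0.0137), which missed the threshold.

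**Figure D4:**
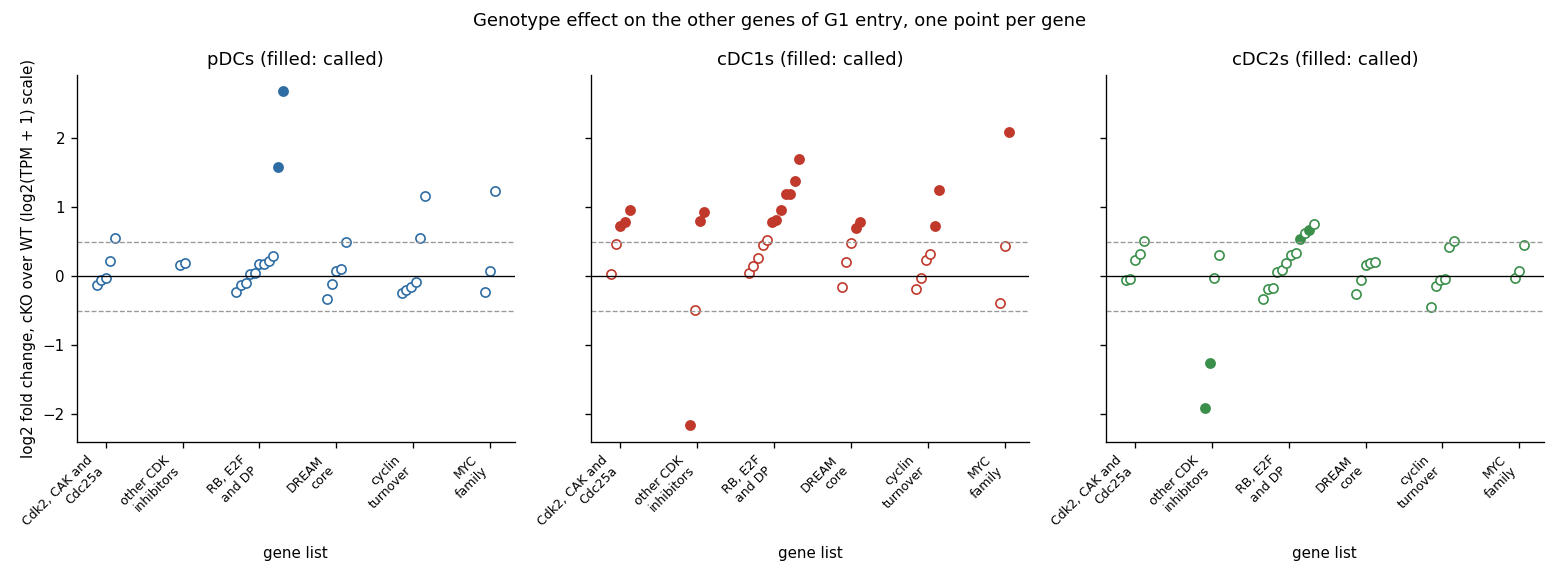
Log2 fold change of cKO over WT (vertical axis, log2(TPM + 1) scale) of the other genes of G1 entry tested, one point per gene, by list (horizontal axis) in pDCs, cDC1s and cDC2s; filled points were called and dashed lines mark 0.5 in either direction. In cDC1s 17 points are filled above 0 and 1, Cdkn2b, is filled below it.

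Among 14 genes of the p53 response, which shares Cdkn1a as a target, 12 were tested in each subset. None was called in pDCs. In cDC1s Phlda3 (1.16, adjusted p = 0.0042) and Aen (1.03, adjusted p = 0.000596) rose, and Pmaip1 (-2.30, adjusted p = 0.00143) and Trp53inp1 (-2.04, adjusted p = 1.07e-05) fell. In cDC2s Trp53inp1 (-0.73, adjusted p = 0.00201) and Sesn2 (-0.73, adjusted p = 0.00589) fell. These are 2 higher and 2 lower of 12 in cDC1s, and 0 higher and 2 lower of 12 in cDC2s. Among all genes tested, 15.8% were called higher and 6.56% lower in cDC1s, and 3.59% and 3.56% in cDC2s. Mdm2, the feedback inhibitor of p53, was called in no subset (-0.11, 0.02 and -0.32 in pDCs, cDC1s and cDC2s).

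Of the 9 quiescence genes, which restrain growth or are high in resting lymphoid cells, 3 fell in cDC1s, 2 in cDC2s and 0 in pDCs. Among all genes tested, 6.56%, 3.56% and 0.239% were called lower in these subsets. Btg1 was at 366 and 522 TPM in WT and 134.5 and 145 TPM in cKO cDC1s (-1.64, adjusted p = 0.000321) and fell by 1.19 in cDC2s (-1.19, adjusted p = 0.00146). Ccng2 fell in cDC1s (-1.62, adjusted p = 0.000224), and Tob1 in cDC1s (-0.69, adjusted p = 0.0058) and cDC2s (-0.67, adjusted p = 0.0059). The list's median was -0.48 in cDC1s, -0.67 in cDC2s and -0.10 in pDCs.

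Of 21 genes of S phase and mitosis, 9 were called higher in pDCs, 16 in cDC1s and 8 in cDC2s, and 0 lower, with medians of 1.44 in pDCs, 1.31 in cDC1s and 0.61 in cDC2s. Over all genes tested, 0.814%, 15.8% and 3.59% were called higher in these subsets. In pDCs 6 of the 21 had a WT mean under 1 TPM (Bub1, Ccna2, Ccnb1, Ccnb2, Cdc6 and Cdk1) and passed the filter only through the cKO libraries, Ccna2 and Ccnb2 among the 9 called. The pDC median includes these 6 genes. Mki67 was at 1.68 to 2.16 TPM in WT and 9.71 to 26.6 TPM in cKO pDCs (2.70, adjusted p = 0.00566) and rose by 1.44 in cDC1s, but was not called in cDC2s (0.41, adjusted p = 0.185). Mcm5, a subunit of the replicative helicase, was higher by 1.44 in pDCs, 1.57 in cDC1s and 1.205 in cDC2s, each a call. Ccna2 was higher by 1.12 in cDC1s, and by 2.69 in pDCs, from a WT mean of 0.993 TPM.

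Other cell states and types also moved with genotype, and their part in the results above was not tested. All 9 genes of a mature DC list fell in cDC1s, where the list summed to 1413 to 2625 TPM in WT and 306 to 396 TPM in cKO libraries. Among them Ccr7 was at 694 and 417 TPM in WT and 18.5 and 33.7 TPM in cKO cDC1s, Fscn1 fell by 2.88 (-2.88) and Ccl22 by 2.92 (-2.92). In cDC2s the list summed to 1533 to 2349 TPM in WT and 903 to 1192 TPM in cKO libraries, and only Ccr7 was called (-1.91, adjusted p = 0.0044). In pDCs 0 of 7 tested were called. The shares of all genes tested that were called lower were 6.56% in cDC1s, 3.56% in cDC2s and 0.239% in pDCs.

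Neutrophil genes (7 genes) summed to 8.98 to 29.7 TPM in WT and 30.15 to 137 TPM in cKO pDCs, 1.84 to 16.9 and 22.7 to 42.9 TPM in cDC1s, and 8.20 to 33.9 and 18.9 to 83.3 TPM in cDC2s. None of the 5 tested in each subset was called, all 5 had a log2 fold change above 0 in each subset, and Ly6g was at 0 in all WT cDC1 and WT cDC2 libraries. Macrophage genes (5 genes) summed to 50.0 to 59.7 TPM in WT and 15.1 to 21.1 TPM in cKO cDC1s, with 1 called lower. In pDCs they summed to 31.7 to 53.5 TPM in WT and 48.7 to 91.4 TPM in cKO libraries, with all 5 log2 fold changes above 0 (median 0.55) and none called, and in cDC2s to 292 to 460 and 293 to 391 TPM. The pDC genes summed to 175 to 178 TPM in WT and 288 to 296 TPM in cKO cDC1s, with 3 called higher and 1 lower. Among all genes tested there, 15.8% were called higher and 6.56% lower. Progenitor genes (7 genes) summed to 105 to 119 TPM in WT and 116 to 125 TPM in cKO pDCs, to 165 to 174 and 141 to 142 TPM in cDC1s and to 201 to 270.2 and 114 to 146 TPM in cDC2s; Ctsg was at 0 in all WT pDC and Elane in all cKO cDC1 libraries. B cell genes (6 genes) summed to 16.65 to 129 TPM, T cell genes to at most 5.63 TPM, NK cell genes to at most 1.55 TPM and platelet genes to at most 6.83 TPM over all libraries. Of the B cell genes, Ms4a1 was called lower in cDC1s (-1.48, adjusted p = 0.000602) and cDC2s (-1.46, adjusted p = 0.000614). All 4 B cell genes tested in pDCs had a log2 fold change above 0 (median 0.62), and none was called. Erythroid genes (5 genes) varied between libraries of 1 group, from 884 to 7234 TPM in WT cDC2s.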

How the data were processed

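RNA-seq was performed on sorted splenic pDCs, cDC1s and cDC2s as single-end reads of 50 bases on a BGISEQ-500. Per the study's methods, reads were cleaned with SOAPnuke, aligned to mm10 with HISAT2 (2.0.4) for genome alignments, and quantified with Bowtie2 (2.2.5) and RSEM (1.2.12). The authors deposited TPM values and FPKM values, in 1 table for pDCs and 1 for cDCs, which were therefore tested apart. TPM was the main unit and FPKM an alternative. Gene IDs were named from RefSeq, for 17079 of 17128 genes of the pDC table and 17667 of 17721 genes of the cDC table.

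Values were tested as log2(TPM + 1) with limma (3.58.1, R 4.3.3; two-sided, with a mean-variance trend) over genes with a mean of at least 1 TPM, 11299 in pDCs and 11411 in cDCs, with Benjamini-Hochberg adjustment over all of them. The fold change understates the change of genes at low levels. The pDC fit held 6 libraries and the cDC fit 10, which shared 1 estimate of the spread. The thresholds were those of the study; the authors used DESeq2. Read depth was estimated from the steps of the values. On simulated data for each comparison, a log2 change of 1 in 200 genes was recovered for 78% in pDCs (11218 genes), 64% in cDC1s (11317 genes) and 71.5% in cDC2s (11312 genes). The changes were put only on genes above a low mean level, and the simulated libraries were not paired. The recovery therefore does not cover genes as low as Ccne1 and Ccne2 in pDCs. Replicate libraries correlated at 0.991 to 0.997, and no libraries were identical.

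The genes and lists were chosen with earlier results of these data known. Named were the 10 genes, up to 6 called genes with the largest change per comparison in each list of G1, p53 and quiescence genes, and, at any value, Cdk2, Rb1, Myc, Mdm2, Mki67, Mcm5, Ccna2, Ccr7, Fscn1, Ccl22 and Trim33. E2f3 was named for its promoter match, the marker genes at 0 for that value, and other marker genes because they were called in a subset. The 3 genes with the most similar effects were named for each G1 gene called in at least 2 subsets, except 1 that is not reported here. Same-numbered pDC libraries deviated together (correlations of 0.31, 0.39 and 0.21), so the numbers were taken to pair them. Same-numbered libraries of cDC1s (-0.23) and cDC2s (-0.25, 0.25 and -0.16) did not. The main fit left the pDC pairing out, and only the replicate block took it in. The pDC values of the other gene lists are from the main, unpaired fit. Alternatives were a pseudocount of 0.1, no filter, FPKM, median-of-ratios scaling, quantile normalization, no trend, a replicate block, each subset fitted alone and each library left out. Figures were drawn with matplotlib (3.10.9) and values handled with Python (3.11.15), numpy (2.4.6) and pandas (2.3.3).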

Additional observations from a re-analysis of the deposited data

Results flagged for a closer look

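Ccnd1 responded differently in the 2 cDC subsets: its genotype effect in cDC1s exceeded that in cDC2s by 1.22 on the log2 scale (SE 0.13, adjusted p = 0.00078 by limma; adjusted p over 17 alternatives 0.00111 to 0.00933). Every cKO cDC1 library was above every WT one, and every cKO cDC2 library below every WT one.

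Ccnd1 also stood in opposite directions in pDCs (0.42) and cDC2s (-0.31), with no overlap between genotypes in either subset. Neither effect was called, and the difference was not tested because the tables were made separately.

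Cdk6 had an effect in cDC1s that exceeded that in cDC2s by 1.26 (SE 0.22, adjusted p = 0.00927 by limma), a difference called in 5 of 17 alternatives (adjusted p 0.00514 to 0.0651).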

How the results depend on the processing

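Of the values of single genes under the alternatives, 764 kept their direction and side of the threshold, 55 lost the call, 3 gained it and 16 changed sign. The 3 calls in pDCs became 1 with no filter and 1 without the trend, and 0 to 2 without each library (0 without WT library 3). The 8 in cDC1s became 6 to 8 without each library. The 5 in cDC2s became 3 with no filter, 3 with the subset fitted alone and 3 to 5 without each library. The 2 differences between cDC1 and cDC2 effects became 1 with a pseudocount of 0.1, 1 with no filter and 1 to 3 without each library, and the 2 calls between WT subsets 2 to 3. The cause of these changes was not tested.

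With the replicate block, the counts were 3 in pDCs, where it changed no call of the 10 genes, 7 in cDC1s, 4 in cDC2s, 1 for the difference and 2 between WT subsets. A crossed pairing in cDC1s, chosen after seeing the data, gave 8 of the 10 genes and 2310 of all genes. Over all genes, the block moved the calls from 119 to 335 in pDCs, from 816 to 356 in cDC2s, from 292 to 95 for the difference and from 3612 to 2118 between WT subsets. Without each library the pDC count was 12 to 97; it was 24 with no filter and 56 without the trend. In cDC2s it was 444 with the subset fitted alone and at lowest 448 without a library, for the difference at lowest 77, and in cDC1s 800 to 2888.

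The share of calls that were higher was 70.7% in cDC1s as deposited, 50.0% after median-of-ratios scaling and 52.4% after quantile normalization. It was 50.2%, 60.5% and, with FPKM, 61.0% in cDC2s as deposited, after median-of-ratios scaling and with FPKM; 47.3%, 26.2% and 30.8% for the difference; and 34.4%, 51.4% and 52.3% between WT subsets.

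Signs turned for values that were not called. Cdk6 in pDCs ran from -0.017 (without cKO library 1) to 0.11 without each library. Cdkn1a in cDC2s ran from -0.29 to 0.59 without each library, and was -0.04 and -0.29 without WT libraries 2 and 3 and -0.05 without cKO library 3. The Cdkn1b difference ran from -0.79 to 0.21 (without WT cDC1 library 2). Between WT subsets Ccne1 was 0.028 with median-of-ratios scaling, 0.10 with quantile normalization, 0.12 with the replicate block and -0.35 to 0.10 without each library (0.10 without WT cDC2 library 3). Cdk4 ran from -0.015 (without WT cDC2 library 1) to 0.055 without each library, with -0.00060 without WT cDC1 library 2 and -0.01 without WT cDC2 library 2, Cdk6 was 0.0032 with quantile normalization, Cdkn1b ran from -0.75 to 0.25 (without WT cDC1 library 1), and E2f1 ran from -0.020 (without WT cDC1 library 2) to 0.16 and was -0.01 without WT cDC2 library 1. Depth limits Ccne1 and Ccne2 in WT pDCs, where 3 reads on a transcript of 2000 bases equal 0.181 to 0.184 TPM.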

Other observations

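The genes whose genotype effects were most like those of a G1 gene called in at least 2 subsets were ranked by the largest absolute difference in log2 fold change over pDCs, cDC1s and cDC2s, among 10619 genes. Nearest to Cdk4 were Rpa1 (0.04), Rfc3 (0.05) and Tipin (0.05), of which Rpa1 and Rfc3 encode subunits of the single-strand binding complex and the clamp loader of DNA replication. Among those nearest to Ccne2 were Chaf1a (0.05), which encodes a subunit of a chromatin assembly factor, and Chtf18 (0.14).

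Nearest to Ccnd3 were Trip13 (0.05), Tedc1 (0.07) and Cenph (0.11), the last a kinetochore gene. Nearest to Ccne1 were Etv5 (0.08), Kntc1 (0.11) and Mybl2 (0.13). For E2f1 they were Igsf8 (0.06), Metrn (0.07) and Camkk2 (0.11), and for Ccnd2 Kcnk12 (0.14), H2ac8 (0.15) and H1f10 (0.41). The likeness is over 3 values a gene and is a description.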
